A study of Mus musculus with 9 samples.

Results

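Chemokine receptors are cell-surface proteins through which chemokines, small secreted proteins, direct the movement and placement of leukocytes. The 9 receptor genes followed here are Cxcr3, Cxcr4, Cxcr6, Ccr2, Ccr4, Ccr6, Ccr7, Ccr8 and Ccr9, chosen by name from 18193 genes that have a probe set of their own on a mouse expression array. A probe set is a group of short DNA probes for 1 transcript, and every probe set annotated with 1 of these symbols alone was taken, which gave 17 of the 34945 that name a single gene. The RNA was that of thymic iNKT (invariant natural killer T) cells, which were sorted from mice 8 to 12 weeks old, matched for age and sex per the labels' protocols. Utx knockout mice gave 4 arrays (KO1 to KO4) and Utx wildtype mice gave 5 (WT1 to WT5), labelled as biological replicates. Utx, encoded by Kdm6a, is a histone H3 demethylase that takes off a mark of silenced genes. The titles also name batches: KO1 and WT1 form batch 1, KO2, KO3, KO4 and WT2 batch 2, and WT3, WT4 and WT5 batch 3. The strain, the way Utx was deleted and which cells lacked it are not given in the sources used here. Here the question is how the level of each receptor transcript in knockout iNKT cells compares with that in wildtype cells.

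All values are log2 expression levels, so a difference of 1 is a doubling, and levels of different genes are not set against each other because each probe set has its own scale. Arrays have no sequencing depth, and precision is limited by how many there are. Differences are knockout minus wildtype from limma with batch as a factor, and a gene is called when its p, adjusted over all 14524 genes tested, is below 0.05. In the knockout arrays the Kdm6a probe set of highest mean read 9.62 to 10.07, against 9.79 to 10.15 in the wildtype arrays. The 4 Kdm6a probe sets had adjusted p of 0.133 to 0.976 (limma over all probe sets), and since the deleted part of the gene is not given, these levels do not check the labels. Zbtb16, the defining transcription factor of iNKT cells, read 10.46 to 10.96 in knockout and 10.69 to 11.18 in wildtype arrays. The probes of this Zbtb16 probe set can also match other transcripts. Cd3e, a chain of the T cell receptor complex, read 12.70 to 13.01 in knockout and 12.79 to 12.93 in wildtype arrays. Of the 8 iNKT and T cell markers these come from, 7 had negative differences and 3 were called lower, namely Cd44, an activation marker (-1.23), Tbx21, the T-bet factor (-1.08), and Il2rb, an interleukin 15 receptor chain (-1.01; limma adjusted p 0.0135 to 0.0276). Their mean level was 11.41 to 11.73 on knockout and 11.92 to 12.07 on wildtype arrays. On the knockout arrays 8 of 13 double-positive thymocyte markers, 3 of 13 macrophage and dendritic cell markers and 2 of 6 B cell markers were called higher, and 0 of these lists' genes were called lower. Over all genes tested, 7.88% were called higher and 3.37% lower. Being bulk samples, the arrays cannot tell fewer cells of a type apart from less RNA per cell.

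Chemokine receptors span the membrane with a bundle of helices and couple to inhibitory G proteins, whose release sets off actin remodelling and integrin activation in the moving cell. In the thymus, Cxcr4 and Ccr9 hold and move immature thymocytes, and Ccr7 brings positively selected cells into the medulla. Mature iNKT subsets carry different receptors, with Cxcr3 typical of the interferon gamma producing NKT1 cells, Ccr6 of the interleukin 17 producing NKT17 cells, and Cxcr6 found on most iNKT cells of tissues. Because 3 receptor genes, Cxcr3, Ccr8 and Ccr2, were called lower together, the 250 bases before the start of each are shown from RefSeq (build GRCm38.p6), 5′ to 3′ on the strand of the gene. Capitals mark the RUNX motif TGTGGT or the GATA motif AGATAA on either strand.
Cxcr3, chrX:101734148-101734397, minus strand: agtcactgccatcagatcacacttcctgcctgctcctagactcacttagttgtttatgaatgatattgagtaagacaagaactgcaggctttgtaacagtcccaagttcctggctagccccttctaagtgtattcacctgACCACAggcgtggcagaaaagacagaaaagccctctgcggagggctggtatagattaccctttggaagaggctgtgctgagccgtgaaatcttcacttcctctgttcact
Ccr8, chr9:120091883-120092132, plus strand: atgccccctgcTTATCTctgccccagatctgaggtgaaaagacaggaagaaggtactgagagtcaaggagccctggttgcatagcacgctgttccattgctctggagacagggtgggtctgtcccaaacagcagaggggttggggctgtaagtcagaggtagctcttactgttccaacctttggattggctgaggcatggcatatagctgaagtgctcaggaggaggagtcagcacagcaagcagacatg
Ccr2, chr9:124101933-124102182, plus strand: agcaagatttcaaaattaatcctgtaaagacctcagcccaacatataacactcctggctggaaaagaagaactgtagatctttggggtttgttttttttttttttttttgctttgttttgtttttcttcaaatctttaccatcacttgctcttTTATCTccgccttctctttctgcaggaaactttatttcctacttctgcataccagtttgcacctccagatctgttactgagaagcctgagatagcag
The Cxcr3 window held the RUNX motif 110 to 105 bases before the start, read on the opposite strand, and no GATA motif. The GATA motif lay, also on the opposite strand, 239 to 234 bases before the start of Ccr8 and 97 to 92 bases before that of Ccr2. The core motif of T-box factors, GGTGTGA, was searched too and was in none of the 8 receptor promoters with a sequence. Over 32851 promoter windows of the same length, 14.0% held the RUNX motif, 9.99% the GATA motif and 3.33% the T-box core. Of the 8 receptors, 2 held the RUNX motif (Cxcr3 and Cxcr6) and 3 the GATA motif (Ccr2, Ccr8 and, before the second of its starts, Ccr6). Counted likewise by gene, over any of its windows, 4303 of 27025 genes held the RUNX motif and 3090 the GATA motif. No match overlapped another, and a match of letters is a description and not a binding site.

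In knockout iNKT cells 3 of the 9 receptor genes fell, namely Cxcr3, Ccr8 and Ccr2, and 1, Ccr7, rose by limma with batch as a factor. Over all genes tested, 3.37% were called lower and 7.88% higher (11.3% either way), and another quantile normalization changed that split from 1144 higher and 490 lower to 1043 higher and 745 lower. All 9 receptors lay above the filter on low values. The other 5 were not called: Cxcr6, Ccr4 and Ccr6 had negative differences, and Ccr9 and Cxcr4 positive ones. The median difference of the 9 was -0.67, against 0.11 over all genes tested. Groups of arrays did not overlap for 6 of the 9, with knockout below for 4 and above for 2, where 12.7% of all genes tested had knockout below, 22.2% had it above and 35.0% had either.

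**Figure D1:**
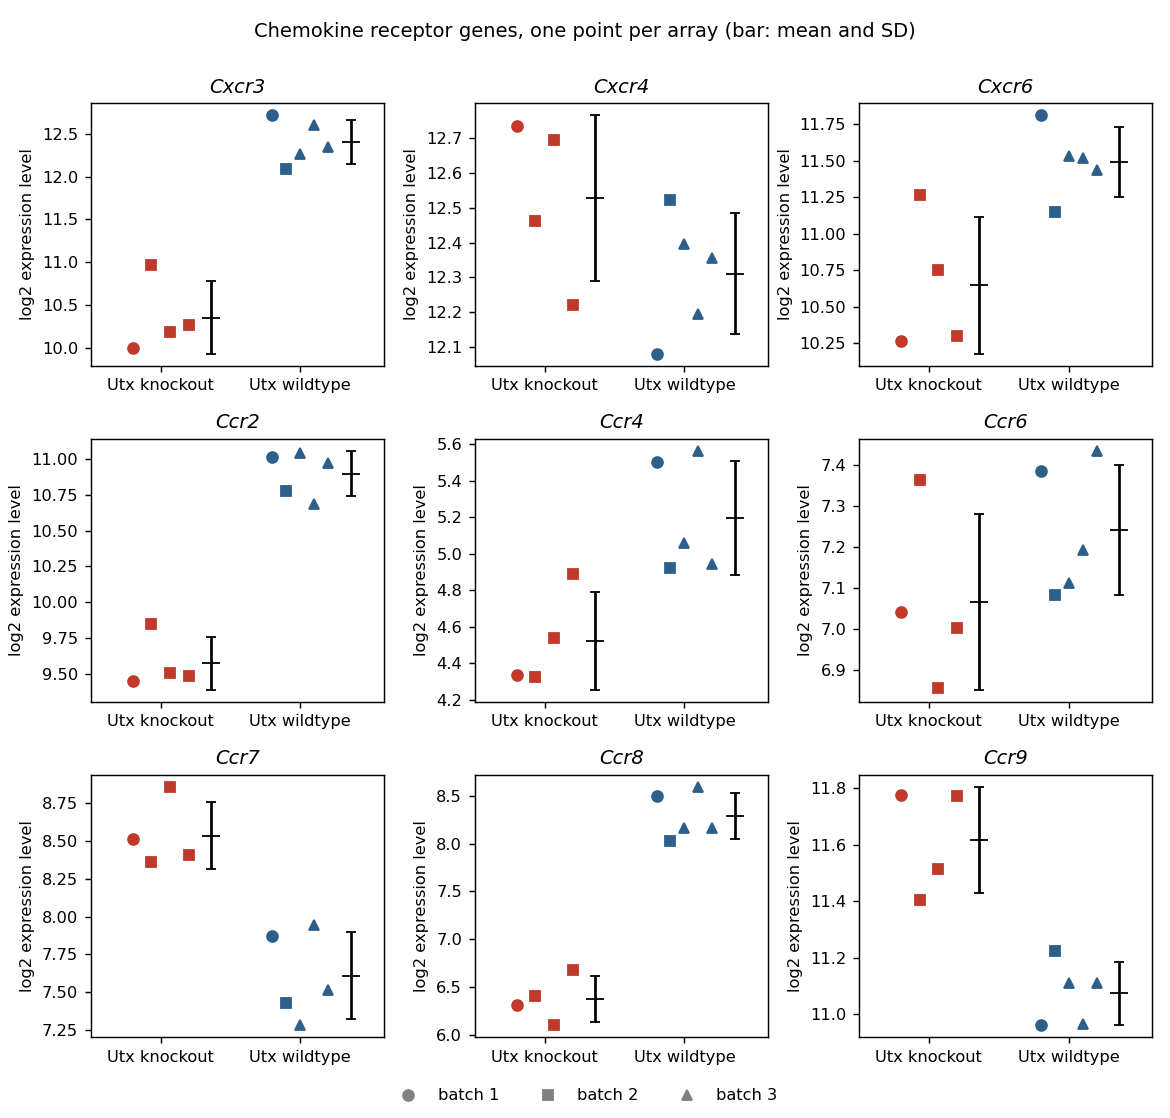
Log2 expression level of the 9 chemokine receptor genes on each array (y axis), with Utx knockout in red and Utx wildtype in blue, point shapes for batches and bars for mean and SD. Knockout arrays lie apart below wildtype arrays for Cxcr3, Ccr2, Ccr4 and Ccr8 and apart above them for Ccr7 and Ccr9; the y axes differ between panels and do not start at 0.

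Among the receptors of inflamed and peripheral tissue, Cxcr3, which binds the interferon-induced chemokines Cxcl9 and Cxcl10, fell. It read 9.995, 10.96, 10.19 and 10.27 in KO1 to KO4, against 12.72, 12.08, 12.27, 12.60 and 12.35 in WT1 to WT5. Every knockout array lay below every wildtype array, and KO2 lay nearest to the wildtype arrays. Means were 10.35 ± 0.42 (SD, n = 4) in knockout and 12.40 ± 0.25 (SD, n = 5) in wildtype cells. The fitted difference was -2.05 (SE 0.30, limma adjusted p = 0.00732), a 4.15-fold lower level. It was -2.72 within batch 1, where each genotype has 1 array, and -1.61 within batch 2. These are also the values of the fits without WT2 (6.59-fold) and without KO1 or WT1 (3.05-fold).

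Ccr2, the receptor for Ccl2 best known for calling monocytes out of the bone marrow, also fell. Its most highly expressed probe set gave 9.45, 9.85, 9.51 and 9.49 in KO1 to KO4, against 11.01, 10.78, 11.04, 10.68 and 10.97 in WT1 to WT5. The knockout arrays lay below all wildtype arrays, with 3 of them close together and KO2 above these. The difference was -1.32 (SE 0.19, limma adjusted p = 0.00685), 2.50-fold lower. Batch 1 gave -1.56 and batch 2 gave -1.17. Ccr2 was measured by 4 probe sets, and their groups of arrays did not overlap on any of them. The share of all probe sets without overlap was not counted, while 12.7% of all genes tested had knockout below. The 4 were read from the same RNA and are not separate checks. Fitted over all 33789 probe sets above the filter, of which 3.17% were called lower and 8.50% either way, the differences were -1.32, -1.48, -1.23 and -0.79 (limma adjusted p = 0.00932, 0.0287, 0.0309 and 0.0950), so that 3 of 4 were called. The call of the second ended without KO1, KO3, KO4, WT1 or WT4 (adjusted p 0.0510 to 0.0567) and that of the third without KO1, KO3, WT1, WT3, WT4 or WT5 (0.0514 to 0.0752), while the brightest was called in all 9 such fits. Macrophages and dendritic cells also carry Ccr2. Their markers had mean levels of 6.38 to 7.12 in the knockout and 5.28 to 5.79 in the wildtype group. The part of these cells in the Ccr2 values was not tested.

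Cxcr6, the receptor for the membrane-bound chemokine Cxcl16, was not called. On its brighter probe set it read 10.26, 11.27, 10.75 and 10.30 in KO1 to KO4, against 11.81, 11.15, 11.53, 11.52 and 11.44 in WT1 to WT5. KO2 lay above WT2, and the other 3 knockout arrays lay below every wildtype array. The difference was -0.84 (SE 0.32, 95% interval -1.57 to -0.11, limma adjusted p = 0.118). It was -1.55 in batch 1 and -0.37 in batch 2. Without KO2 it was -1.02 and was called (adjusted p = 0.0354). The second probe set read 9.28, 10.63, 9.55 and 8.55 in KO1 to KO4, against 11.26, 10.79, 10.84, 11.24 and 10.99 in WT1 to WT5, with no overlap. Its difference of -1.52 (SE 0.49, limma adjusted p = 0.0854 over all probe sets) did not pass, and its spread in knockout arrays (SD 0.86) was wider than in wildtype arrays (SD 0.22).

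NKT1 markers moved with these receptors: 6 of 8 were called lower and 0 higher, against 3.37% and 7.88% of all genes tested. Their mean level ran from 10.22 to 11.01 on knockout arrays and from 11.51 to 11.85 on wildtype arrays. Tbx21 and Il2rb stand in this list as well as among the iNKT and T cell markers. KO2 was the knockout array nearest to wildtype for 6 of the 9 receptor genes, Cxcr3, Ccr2 and Cxcr6 among them. WT2 was the wildtype array nearest to knockout for 7 of the 9. The part of a changed share of NKT1 cells in these differences was not tested.

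**Figure D2:**
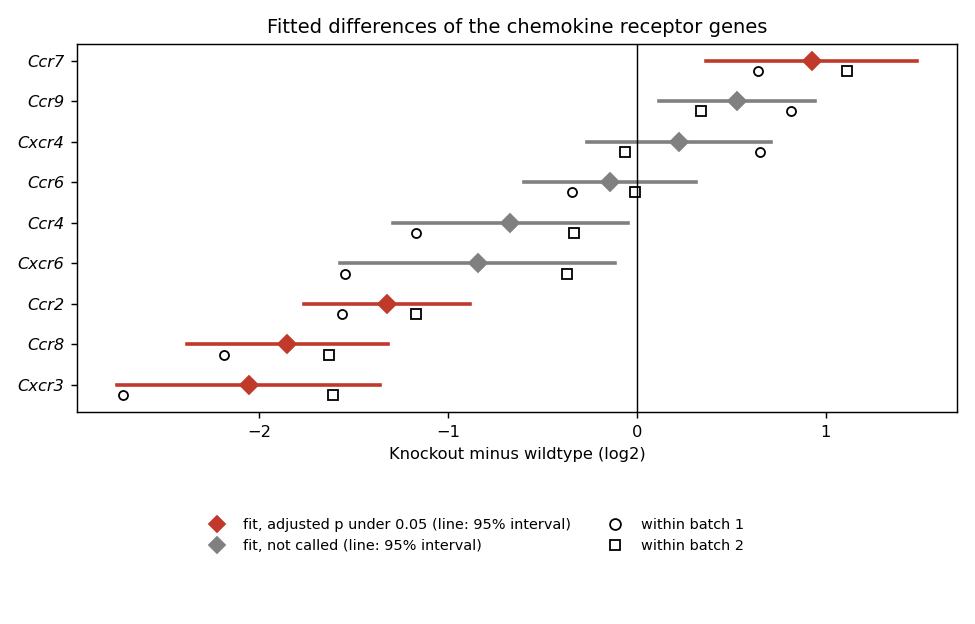
Knockout minus wildtype difference (x axis, log2) of each receptor gene from limma with batch as a factor, with lines for the 95% interval and open symbols for the difference within batch 1 (circles) and batch 2 (squares). Cxcr3 (-2.05), Ccr8 (-1.85), Ccr2 (-1.32) and Ccr7 (0.93) are called, and in 8 of 9 genes both batches have the same sign. The share of all genes with the same sign was not counted.

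Ccr8 and Ccr4 are receptors best known from type 2 helper and regulatory T cells, Ccr8 binding Ccl1 and, in mice, Ccl8, and Ccr4 binding Ccl17 and Ccl22. Ccr8 read 6.31, 6.41, 6.10 and 6.68 in KO1 to KO4, against 8.49, 8.03, 8.17, 8.59 and 8.17 in WT1 to WT5. The highest knockout array stayed below the lowest wildtype array by more than the range of either group. Ccr8 fell to 6.38 ± 0.24 (SD, n = 4) in knockout cells, against 8.29 ± 0.24 (SD, n = 5) in wildtype cells, 3.61-fold lower (difference -1.85, SE 0.23, limma adjusted p = 0.00436). It differed by -2.18 in batch 1 and -1.63 in batch 2, had the smallest p of the 9 receptors and ranked 109 among the 14524 genes tested.

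Ccr4 was dim. It read 4.33, 4.32, 4.54 and 4.89 in KO1 to KO4, against 5.51, 4.92, 5.06, 5.56 and 4.94 in WT1 to WT5. Knockout arrays lay below wildtype arrays, but KO4 and WT2 were only a small step apart. The difference of -0.67 (SE 0.27, 95% interval -1.29 to -0.048, limma adjusted p = 0.138) was not called. It was -1.17 in batch 1 and -0.33 in batch 2. The knockout mean of 4.52 lies under the filter level of 4.54 and the wildtype mean of 5.20 above it, and the file holds no detection calls, so whether the knockout signal is above background is not known. Of the markers of interleukin 4 producing NKT2 cells, the iNKT subset related to type 2 helper cells, 0 of 7 were called in either direction by limma, with 3 at an unadjusted p below 0.05, where 30.8% of all genes tested were.

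Ccr6, the receptor for Ccl20 and a surface marker of cells that make interleukin 17, was not called. It read 7.04, 7.37, 6.86 and 7.003 in KO1 to KO4, against 7.39, 7.08, 7.11, 7.19 and 7.43 in WT1 to WT5. The groups overlapped, with KO2 among the higher arrays of the series. The difference was -0.14 (SE 0.20, limma adjusted p = 0.653), and its 95% interval of -0.60 to 0.31 leaves room for a change of either sign. Within batches it was -0.34 in batch 1 and -0.0083 in batch 2. Of the 6 NKT17 markers tested, 3 were called lower and 0 higher, against 3.37% and 7.88% of all genes tested. Their mean levels were 7.62 to 8.34 on knockout arrays and 8.67 to 9.58 on wildtype arrays.

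Of the receptors that place thymocytes and lymph node seeking T cells, Ccr7 rose. Ccr7 binds Ccl19 and Ccl21. It read 8.51, 8.36, 8.86 and 8.41 in KO1 to KO4, against 7.87, 7.43, 7.28, 7.94 and 7.51 in WT1 to WT5. Every knockout array lay above every wildtype array. Ccr7 averaged 8.54 ± 0.22 (SD, n = 4) in knockout and 7.61 ± 0.29 (SD, n = 5) in wildtype cells, 1.90-fold higher (difference 0.93, SE 0.25, limma adjusted p = 0.0461). It differed by 0.64 in batch 1 and by 1.11 in batch 2. The call held without KO2 or WT4 and ended when any other array was left out (differences of 0.64 to 1.11, adjusted p 0.0531 to 0.484). It also ended when p was adjusted over all probe sets (0.0539). There 0 of the 17 receptor probe sets were called higher, against 5.33% of all probe sets, and 5 lower, against 3.17%. These 5 were probe sets of Cxcr3, Ccr8 and Ccr2 alone, Ccr2 having more than 1.

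Ccr9, the receptor for Ccl25, the chemokine of the thymic cortex and the small intestine, was not called. Its brightest probe set read 11.78, 11.41, 11.51 and 11.77 in KO1 to KO4, against 10.96, 11.22, 11.11, 10.96 and 11.11 in WT1 to WT5. All knockout arrays lay above all wildtype arrays. The difference was 0.53 (SE 0.18, 95% interval 0.12 to 0.94, limma adjusted p = 0.0912), 0.82 within batch 1 and 0.34 within batch 2. Of its 5 probe sets 0 were called by limma over all probe sets (2 had an unadjusted p below 0.05), where the brighter 4 differed by 0.53, 0.56, 0.44 and 0.37 and the dimmest by -0.35 (adjusted p 0.109 to 0.686). The arrays did not overlap on the 2 brightest and overlapped on the other 3, and the share of all probe sets without overlap was not counted. Within batch 2 alone, 3 of the 5 probe sets had negative differences (-0.088, -0.44 and -0.84), while within batch 1 all 5 were positive.

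Cxcr4, the receptor for Cxcl12 on bone marrow and thymic cells, had overlapping groups. It read 12.73, 12.46, 12.69 and 12.22 in KO1 to KO4, against 12.08, 12.52, 12.40, 12.19 and 12.36 in WT1 to WT5. KO1 was the highest array and WT1 the lowest, and both belong to batch 1. The difference of 0.22 (SE 0.21, 95% interval -0.26 to 0.71, limma adjusted p = 0.506) was 0.65 in batch 1 and -0.064 in batch 2, the only receptor of the 9 whose sign differed between these batches.

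Markers of other cells differed beside Ccr7 and Ccr9, in both directions. Double-positive thymocytes carry Ccr9, and their 13 markers had mean levels of 11.38 to 11.91 on knockout arrays and 10.42 to 10.84 on wildtype arrays. Every knockout array lay above every wildtype array for all 13, as it did for 22.2% of all genes tested. B cells and dendritic cells carry Ccr7. B cell markers ran from 7.02 to 7.99 on knockout arrays and from 6.38 to 6.85 on wildtype arrays, and Cd79a, part of the B cell receptor, read 8.07 to 9.21 in knockout and 6.35 to 7.13 in wildtype arrays. Pax5, a defining B cell factor, stayed near the filter level in both groups (4.46 to 5.02 in knockout and 4.73 to 5.01 in wildtype arrays). Cd14, a monocyte marker, gave no tested value. The dendritic cell genes Flt3 and Zbtb46 overlapped between groups, with differences of -0.063 and 0.18. Itgax, from the same list, also overlapped and was not called, with a difference of 0.93 (limma adjusted p = 0.159). Of the 13 macrophage and dendritic cell genes tested, 12 had positive differences. Markers of immature iNKT cells had 2 of 4 called higher, where 7.88% of all genes tested were. Mature conventional T cells carry Ccr7 as well. Of their 5 markers tested, 2 were called lower and 0 higher, against 3.37% and 7.88% of all genes tested. Their mean levels were 10.51 to 10.75 on knockout and 10.87 to 11.00 on wildtype arrays. Differences were negative for 3 and positive for 2, Satb1 (0.33) and Lef1 (0.19), which were not called. Satb1 is also in the double-positive list and Lef1 in the NKT2 list. Of 4 thymic epithelial genes, 0 were called, with 0 at an unadjusted p below 0.05, where 30.8% of all genes tested were. The part of these cells in the Ccr7 and Ccr9 values was not tested.

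**Figure D3:**
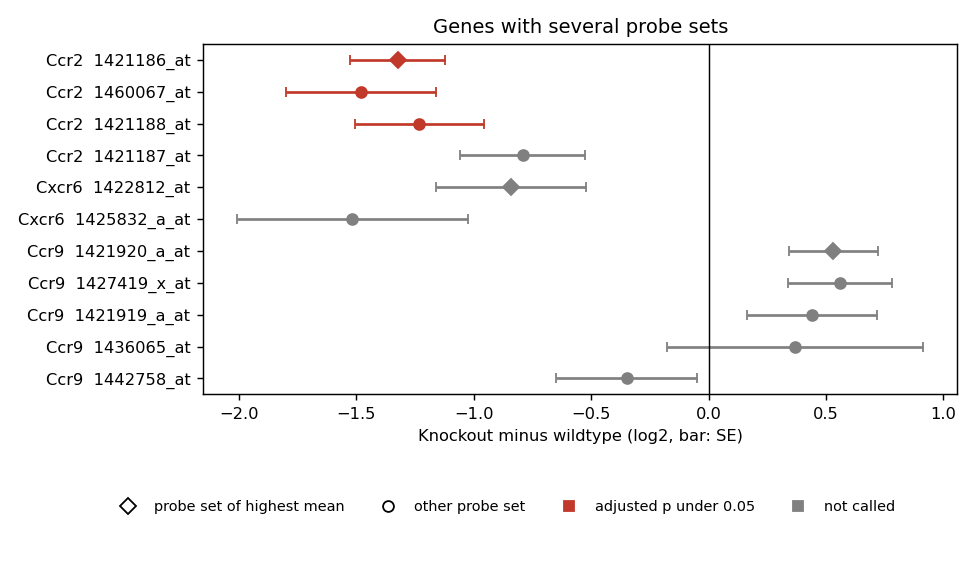
Knockout minus wildtype difference (x axis, log2, bars for SE) of every probe set of Ccr2, Cxcr6 and Ccr9, with diamonds for the probe set of highest mean and red for an adjusted p below 0.05 over all probe sets. The 4 Ccr2 and both Cxcr6 probe sets lie below 0, while those of Ccr9 lie on either side of it, from -0.35 to 0.56.

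In 8 of the 9 receptors the difference was larger in size in batch 1 than in batch 2, Ccr7 being the exception. Batch 1 has 1 array of each genotype. The share of all genes with a larger difference there was not counted, so this is not shown to be particular to the receptors. A test of the difference between the batches called 0 of the 9 receptors (limma adjusted p 0.390 to 0.722, with 0 of 9 at an unadjusted p below 0.05), against 0.0207% of all genes tested, or 13.3% at an unadjusted p below 0.05. The closest were Cxcr6 (batch 1 minus batch 2, -1.18, unadjusted p = 0.0567) and Cxcr3 (-1.11, unadjusted p = 0.0609). Cxcr3, Ccr2 and Ccr8 were called in all 9 fits that left out 1 array. Their differences ran from -2.72 to -1.61, from -1.56 to -1.17 and from -2.18 to -1.63 in these fits. These are not 9 separate checks, since leaving out WT3, WT4 or WT5 cannot change the difference. Leaving out KO1 or WT1 gives the same fit, and WT1 and WT2 alone set the wildtype side of the difference.

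**Figure D4:**
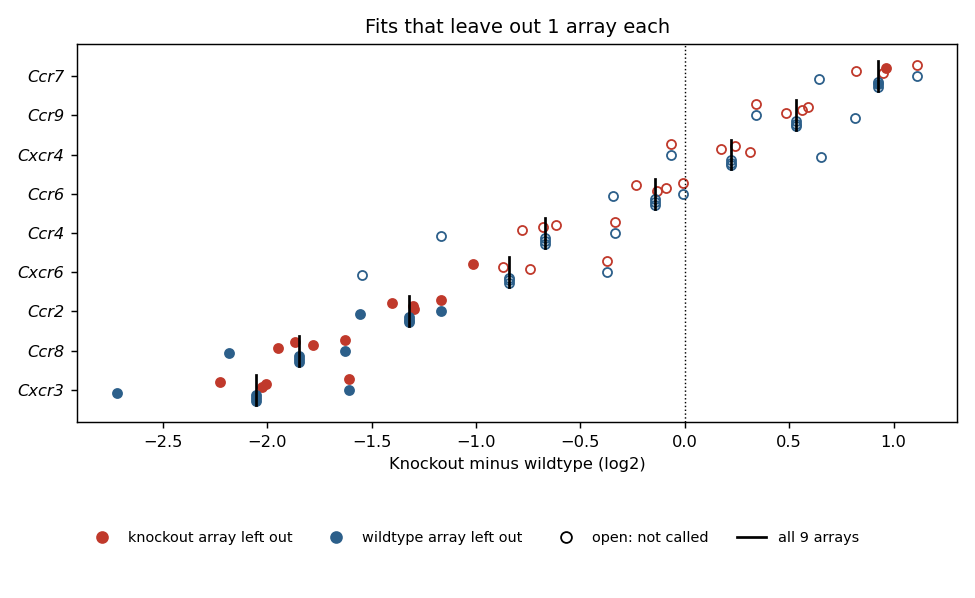
Knockout minus wildtype difference (x axis, log2) of each receptor in the 9 fits that leave out 1 array, red for a knockout and blue for a wildtype array, filled where the adjusted p is below 0.05, with a line for the fit on all arrays. Points of Cxcr3, Ccr8 and Ccr2 are all filled, Ccr7 has 2 filled points, Cxcr6 has 1 and the other receptors have none.

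The genes whose pattern over the 9 arrays was most like that of each called receptor were found by the root mean square difference of values centred on each gene's own mean. For Cxcr3 these were S100a4, a calcium-binding protein (0.1002), Ehd3, an endosomal trafficking protein (0.121), and Ppp3cc, a catalytic subunit of calcineurin (0.154, log2), where the median over all genes was 1.12. For Ccr2 they were Klrc1, a natural killer receptor of the NKG2 group (0.0978), Arhgap26, a GTPase-activating protein (0.125), and Hhex, a homeobox factor (0.134), with a median of 0.755. For Ccr8 they were Wdr95 (0.144), Evi2a (0.167) and Reck, an inhibitor of matrix metalloproteinases (0.206), with a median of 1.04. All 9 of these genes fell, with differences of -2.07 to -1.34 (limma adjusted p 0.00292 to 0.0130), and were called in all 9 fits that left out 1 array. For Ccr7 they were Kifbp, a kinesin-binding protein (0.128), Scaf4, a regulator of transcript ends (0.130), and Dpy30, a subunit shared by histone H3 lysine 4 methyltransferases (0.130), with a median of 0.511. These 3 rose by 0.82 to 0.90 (limma adjusted p 0.0418 to 0.0466), and their calls held in 2 or 3 of the 9 fits that left out 1 array and ended without KO3, KO4, WT2, WT3, WT4 or WT5, as well as without KO2 for Scaf4 and Dpy30. The rule selects genes that differ between the genotypes as the receptor does, so their calls are no separate support.

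Of 10 ligands of the 9 receptors tested, 1 was called higher and 0 lower, against 7.88% and 3.37% of all genes tested. Their median difference was 0.43, against 0.11 over all genes tested. Ccl25, the ligand of Ccr9, rose. It read 7.76, 7.66, 7.90 and 8.22 in KO1 to KO4, against 6.98, 6.60, 7.22, 6.61 and 6.61 in WT1 to WT5, with no overlap. It was 2.15-fold higher (difference 1.10, SE 0.26, limma adjusted p = 0.0307), a call that ended without KO3, WT2, WT4 or WT5 (adjusted p from 0.0503 to 0.372; the difference was 0.78 without WT2). Ccl8, a ligand of Ccr8, had a difference of 1.54, Cxcl9, a ligand of Cxcr3, one of 0.63, and Ccl22, a ligand of Ccr4, one of 1.15, and these 3 were not called (adjusted p 0.101 to 0.174). The Ccl8 difference was 3.18 within batch 1, or without WT2, and 0.44 within batch 2, or without KO1 or WT1. The other 4 ligands on the array lay under the filter, and 2 have no probe set of their own. Side by side, receptor and ligand differences were 0.53 for Ccr9 with 1.10 for Ccl25, -1.85 for Ccr8 with 1.54 for Ccl8 and -0.61 for Ccl1, and -2.05 for Cxcr3 with 0.63 for Cxcl9 and 0.14 for Cxcl10. They were -1.32 for Ccr2 with 0.23 for Ccl2, and -0.84 for Cxcr6 with 0.84 for Cxcl16. Ccr4 had -0.67 with 1.15 for Ccl22 and 0.19 for Ccl17, and Cxcr4 had 0.22 with -0.14 for Cxcl12. Ccr6 and Ccr7 had no tested ligand. Ccl1, Cxcl10, Ccl2, Cxcl16, Ccl17 and Cxcl12 were not called either (limma adjusted p 0.231 to 0.777).

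Of 7 other chemokine receptors tested, 0 were called by limma in either direction, with 2 at an unadjusted p below 0.05 (30.8% of all genes tested), and their median difference was -0.034, which turned to 0.039 after another quantile normalization. Those of smallest p were Ccr10 (-0.83), Ccrl2 (-1.18), the Duffy receptor gene Ackr1 (-0.31) and Ackr4, a scavenger of Ccl19, Ccl21 and Ccl25 (0.45; limma adjusted p 0.0927 to 0.346). Ccr1, Ccr3, Cxcr2, Xcr1, Ackr3 and Cmklr1 lay under the filter.

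Of 34 genes tested that carry or limit the receptors' signal, 3 were called lower and 0 higher, against 3.37% and 7.88% of all genes. Their median difference was -0.16, against 0.11 over all genes tested. Every knockout array lay below every wildtype array for 12 of the 34, and above for 0 (12.7% and 22.2% of all genes tested). Rgs1, Rgs3 and Rgs2, whose products switch off G protein signals, fell. They were 3 of 7 RGS genes tested, and Rgs10 (-0.23), Rgs14 (0.43), Rgs16 (-0.38) and Rgs19 (-0.17) were not called and overlapped between groups. Rgs1 read 8.89, 9.64, 9.0004 and 9.46 in KO1 to KO4, against 11.29, 10.65, 11.12, 10.94 and 10.91 in WT1 to WT5, with no overlap, and was 3.33-fold lower (difference -1.74, SE 0.28, limma adjusted p = 0.00928). Rgs3 fell by 1.12 and Rgs2 by 1.07 on the log2 scale (limma adjusted p = 0.0416 and 0.0424). The Rgs1 call held in all 9 fits that left out 1 array. That of Rgs3 ended without KO1, KO3, WT1, WT3, WT4 or WT5, and that of Rgs2 without these or KO2 (differences of -1.90 to -0.60 and -1.77 to -0.61, adjusted p up to 0.135 and 0.147). Gng2, a G protein gamma subunit, had a difference of -0.71 (adjusted p = 0.0642). The inhibitory G protein genes Gnai2 (0.18) and Gnai3 (0.080) were not called (limma adjusted p = 0.483 and 0.736).

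**Figure D5:**
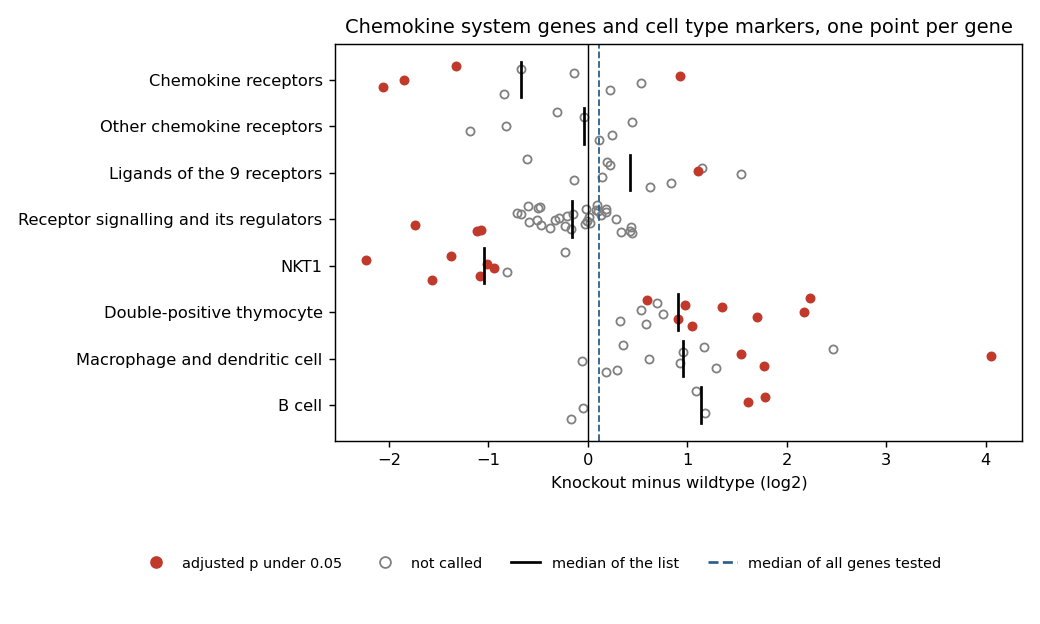
Knockout minus wildtype difference (x axis, log2), 1 point per tested gene, for the receptors, related chemokine genes and marker lists, red where called, with black lines for list medians and a dashed line for the median of all genes tested (0.11). The receptors have a median of -0.67, their ligands of 0.43, NKT1 markers of -1.04 and double-positive thymocyte markers of 0.90.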

How the data were processed

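Each array has 1 deposited log2 value per probe set, produced by the authors using RMA, per the submitters' processing notes. The sources used here give no version and do not say whether other steps came after it. Deviations of KO1 and WT1 from their group means correlated across genes at -0.92, and had values been adjusted for batch before deposit, the standard errors and p-values of a fit with batch would not hold as printed. RNA was amplified from small amounts before labelling, per the labels' protocols, which can alter relative levels. The array's annotation gives 1 gene to 34945, several to 932 and none to 9160, and 64 are controls. For each gene the probe set of highest mean was used, and genes whose mean passed 4.54, the 25th percentile over probe sets, were tested. limma (version 3.58.1, R 4.3.3) was fitted with lmFit and eBayes on all 9 arrays, with genotype and batch as factors, two-sided, with Benjamini-Hochberg adjustment at 0.05. The fit had 5 residual and 3.50 prior degrees of freedom. Batch 3 holds wildtype arrays alone, so it informs the spread and not the difference. The receptors, lists and tests were chosen with earlier results of these data known. Named genes are the 9 receptors, Kdm6a, the 3 genes of most similar pattern for each called receptor and up to 4 of smallest p in each chemokine list. Gnai2, Gnai3, the other RGS genes, Ccl1, Cxcl10, the marker genes named and the neighbours on chromosome 9 were chosen after their values were seen. So were Ccl2, Cxcl16, Ccl17 and Cxcl12. Alternatives covered the batch term, filter, scaling, choice of probe set, eBayes settings, array weights, threshold and single arrays.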

Additional observations from a re-analysis of the deposited data

Results flagged for a closer look

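Values of single arrays stood apart on 3 of 34 groups of arrays examined (17 probe sets in 2 genotypes), by Dixon's test, which flags about 1 in 20 groups by chance. On the Ccr2 probe set of highest level KO2 read 9.85, while the other knockout arrays read 9.45 to 9.51. On a Ccr9 probe set whose probes can also match other transcripts, KO2 read 10.79 and the other knockout arrays 11.26 to 11.32. On another Ccr9 probe set KO1 read 10.19 and the other knockout arrays 9.59 to 9.62. Without KO2 the Ccr2 difference was -1.40 (limma adjusted p = 0.00325) in place of -1.32.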

How the results depend on the processing

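Cxcr3, Ccr8 and Ccr2 were called lower under all 13 alternatives that kept every array or left out several, and in all 9 fits without 1 array. Of these, Cxcr3 had a difference of larger size than Ccr8 except without KO1, WT1 or the batch 1 pair (-1.61 for Cxcr3 and -1.63 for Ccr8). Ccr7 lost its call with no filter on low values (adjusted p = 0.0503), another quantile normalization (0.0822), trend and robust eBayes (0.0515), array weights (0.126), and without the wildtype arrays of batch 3 (0.0952) or the batch 1 pair (0.0531). The Cxcr4 difference reversed to -0.064 without KO1, without WT1 and without the batch 1 pair, and ran from -0.064 to 0.65 without single arrays. Receptors called higher numbered 1 in the report. They numbered 2 with no batch term, 3 with batch as a random block, 2 with the replicate block and 2 at a threshold of 0.10. They numbered 0 with no filter, another quantile normalization, array weights, a threshold of 0.01, and without batch 3 or the batch 1 pair, and 0 to 1 without single arrays. Under trend and robust eBayes the 1 called was Ccr9. Receptors called lower numbered 3, with 5 under no batch term, 6 with batch as a random block, and 3 to 4 without single arrays. Over all genes 1144 were called higher and 490 lower. Counts were 4038 and 2304 with no batch term, 6166 and 3879 with batch as a random block, 408 and 126 with array weights, 274 and 66 without the wildtype arrays of batch 3, 271 and 65 at a threshold of 0.01 and 2019 and 1014 at 0.10. They were 1043 and 745 after another quantile normalization, and 550 to 1508 and 249 to 576 without single arrays (moved over 1.5 times without KO3, WT2, WT3 or WT5 for higher, and without KO3, KO4, WT3, WT4 or WT5 for lower). The causes were not tested. Deviations of same-numbered arrays from their group means correlated across genes at -0.92, 0.085, 0.023 and 0.15 for numbers 1 to 4. Only numbers 1 and 2 share a batch. These correlations give no sign that the replicate numbers of the titles pair the arrays. Had values been adjusted for batch before deposit, the correlations could not decide whether they do. With the replicate block in place of batch, 2816 genes were called higher and 1474 lower, and Ccr4 (-0.74) and Ccr9 (0.55) were called as well. RMA values carry no detection call, so what lies above background is unknown for dim probe sets such as that of Ccr4.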

Other observations

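Ccr9, Cxcr6 and Ccr2 are neighbours on chromosome 9 in the RefSeq gene table (GRCm38.p6), in that order, with Fyco1 between Ccr9 and Cxcr6, and Xcr1, Ccr1, Ccr1l1 and Ccr3 between Cxcr6 and Ccr2. Along this stretch the differences were 0.82 for Lztfl1, which precedes Ccr9, 0.53 for Ccr9, 0.52 for Fyco1, -0.84 for Cxcr6 and -1.32 for Ccr2, and only Ccr2 was called (limma adjusted p = 0.00685, with 0.0649 to 0.437 for the other 4). Xcr1, Ccr1, Ccr1l1 and Ccr3 lay under the filter. The nearest tested genes on either side of Cxcr3, Ogt and 8030474K03Rik, had differences of -0.096 and -0.12, and those beside Ccr8, Cx3cr1 and Slc25a38, had 0.24 and -0.12, and these 4 were not called (limma adjusted p 0.548 to 0.782). Beside Ccr7, Tns4, a tensin, fell by 1.68 on the log2 scale (limma adjusted p = 0.0118), the opposite sign to Ccr7, and on the other side Smarce1 had a difference of 0.22 (limma adjusted p = 0.327).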
